A study of Mus musculus with 2 samples.

Results

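The Car3- and Fabp4-rich spots described here are 150 of 5745 tissue spots, 75 from each of 2 spatial transcriptomic libraries. A spot is a small area of a tissue section that can hold several cells. The spots were chosen by measured values: each had at least 100 UMIs (unique molecular identifiers, 1 per captured transcript) and at least 2 UMIs summed over 6 selection genes. Those genes are Adipoq, Plin1, Cidec, Fabp4, Cfd and Car3, which mark adipocytes in many tissues. In each library the 75 spots with the highest share of UMIs from the 6 genes were taken, out of 170 eligible flat and 180 eligible micropillar spots. The working name for them was adipocyte-rich. As a summed list, the adipocyte genes outside the selection did not bear that name out, as the values below show. The spots are therefore called here by the 2 genes that led the selection.

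Both libraries came from formalin-fixed, paraffin-embedded sections of nude mice, which lack a thymus, and the labels give the tissue of both as bone. One library had a flat implant and the other a micropillar implant, a surface patterned with small posts. The study's title concerns how such surface texture bears on nuclear shape, secreted factors and bone regeneration. The number and age of the mice, the time after implantation, the implant site and the implant material are not stated in the labels. With 1 library per implant there was no replicate, so no test was run and no p-value is given, and a difference between implants is a difference between 2 libraries. Intervals are 95% and cover counting error only.

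Adipocytes store triglyceride in a single large droplet. They take up fatty acids through lipoprotein lipase and fatty acid binding proteins, coat the droplet with perilipins, release lipid through the lipases Pnpla2, Lipe and Mgll, and secrete hormones such as adiponectin and leptin. In skin, the lower ends of growing hair follicles reach into the dermal fat layer. Fat cells also lie between muscle fibres and in marrow. Of the selection genes, Adipoq (adiponectin), Plin1 (the perilipin of the large droplet) and Cidec (a droplet fusion protein) are the most restricted to fat. Fabp4 is also made by capillary endothelium and macrophages, and Car3, a cytosolic carbonic anhydrase, is abundant in skeletal muscle as well as fat. Cfd encodes adipsin, a complement factor secreted by fat.

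On the mm10 genome, all 6 are annotated as protein-coding genes. Car3 lies on chromosome 3 from 14863512 to 14872523 and Fabp4 on the same chromosome from 10204088 to 10208576. Cfd lies on chromosome 10 from 79890853 to 79892655 and Adipoq on chromosome 16 from 23146536 to 23158028. Plin1 lies on chromosome 7 from 79720218 to 79732903 and Cidec on chromosome 6 from 113424634 to 113435760. UMIs were counted per gene, so no value refers to an exon or untranslated region.

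The spots were shallow. In the flat library they held 102 to 630 UMIs with a median of 180, against a median of 622.5 in the 2606 other spots with at least 100 UMIs. In the micropillar library they held 118 to 1152 UMIs with a median of 493, against 848 in 2989 other spots. Together they carried 18169 flat and 39184 micropillar UMIs, which is 0.803% and 1.23% of their libraries. The share taken by the selection genes ran from 0.904% to 3.40% (flat) and from 0.573% to 1.69% (micropillar). At the lower edge, the last flat spot taken had 3 selection UMIs of 332 and the first left out had 5 of 557. In the micropillar library these were 6 of 1048 and 2 of 350. In 35 flat and 15 micropillar spots the choice rested on just 2 UMIs. The libraries shared 2135 spot barcodes in all, of which 1 was a chosen spot in both.

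Most other spots carried neuron genes, although the label gives bone. A UMI of at least 1 of 8 neuron genes was found in 63.3% of the other flat spots and 78.8% of the other micropillar spots. These shares depend on depth: with every spot thinned to 100 UMIs they were 32.8% and 37.8%. A list of 8 bone-forming cell genes, of which 7 were measured, gave 507 and 772 UMIs in all spots with at least 100 UMIs. A comparison with all other spots is therefore largely one with spots that carry neuron genes. The main lists are given below also against the 956 flat and 633 micropillar other spots without any neuron UMI. These were closer in depth, with medians of 243 and 339 UMIs.

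The selection rested on Car3, Fabp4 and Cfd. Car3 had 151 UMIs in flat and 130 in micropillar spots, with a UMI in 68 and 66 of the 75 spots. Fabp4 had 72 and 137 UMIs, in 33 and 57 spots. Cfd had 21 and 43 UMIs, in 17 and 31 spots. Adipoq had 4 UMIs in each library, Plin1 had 1 and 2, and Cidec had 2 and 3. The 3 most fat-restricted genes together thus gave 7 UMIs in 6 flat spots and 9 UMIs in 9 micropillar spots. A lower count can come from fewer cells of a type in a spot or from less RNA per cell, which cannot be told apart. The 3 genes were scarce everywhere, with 20 UMIs in 19 spots and 23 UMIs in 22 spots over each whole library.

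**Figure D1:**
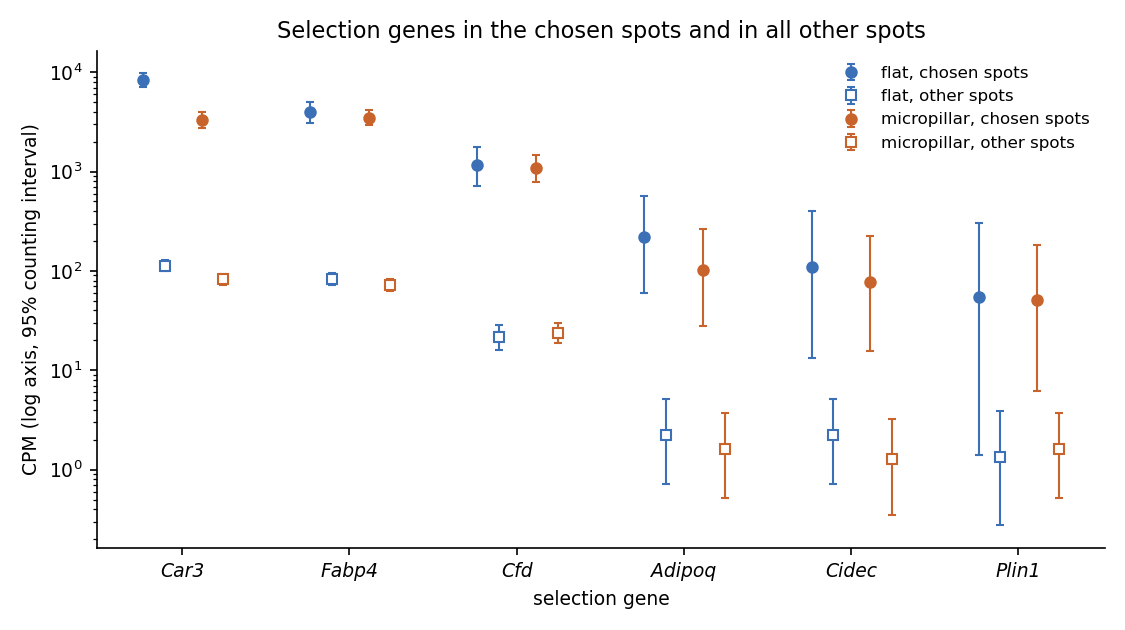
Levels of the 6 selection genes in counts per 1000000 UMIs (CPM, log axis) in the 75 chosen spots (filled circles) and all other spots (open squares) of each library, with 95% counting intervals. Car3 was the highest in the flat library at 8311 CPM, and the intervals of Adipoq, Cidec and Plin1 rest on 1 to 4 UMIs.

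Since these 6 genes chose the spots, their levels are a description. In counts per 1000000 UMIs (CPM), Car3 stood at 8311 in the flat and 3318 in the micropillar spots, Fabp4 at 3963 and 3496, and Cfd at 1156 and 1097. Car3 gave 60.2% of the selection UMIs in the flat spots and 40.8% in the micropillar spots. It outweighed the others combined in 45 flat and 25 micropillar spots, here called Car3-led. Fabp4 did so in 12 and 18, here called Fabp4-led. In 34 flat spots and 9 micropillar spots Car3 was the only selection gene found. Car3 and Fabp4 occurred together in 26 and 48 spots, and at least 3 of the genes in 10 and 24.

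How the genes went together was measured by choosing spots again without a gene and reading that gene in them. Fabp4 then stood at 1799 CPM in the flat spots and 1529 in the micropillar spots, 18.2-fold (12.4 to 25.9) and 16.2-fold (12.3 to 21.2) above the remaining spots. Against remaining spots without a neuron UMI the excess was 3.49-fold (2.36 to 5.03) and 3.07-fold (2.26 to 4.13). Cfd was 5.74-fold (2.90 to 10.7) and 4.26-fold (2.53 to 7.05) higher against those same spots. Car3, read in 64 flat and 75 micropillar spots chosen without it, was 2.21-fold (1.66 to 2.91) and 2.57-fold (1.92 to 3.41) higher. Of the flat spots chosen without Car3, just 25 were among the 75. Adipoq, Plin1 and Cidec, left out together, had 5 UMIs in each library, which is 9.26-fold (2.44 to 30.8) and 3.99-fold (1.05 to 13.2) higher. Fabp4, Cfd and Car3 thus each exceeded their level in spots without a neuron UMI, and the 3 fat-restricted genes did so as a group, on 5 UMIs.

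As a summed list, the other genes of adipocytes did not share this excess. A list of 60 further adipocyte genes, of which 59 were measured, had 122 UMIs (6715 CPM) in the flat and 250 UMIs (6380 CPM) in the micropillar spots. Against all other spots its summed level was higher by 1.12 (0.85 to 1.38) and 0.92 (0.73 to 1.10) on the log2 scale. Against other spots without a neuron UMI the log2 ratio was -0.01 (-0.29 to 0.25) and -0.10 (-0.29 to 0.10). Against other spots in the same range of UMI totals it was 0.25 and 0.62. Of the 59 genes, 28 had no UMI in the flat spots, 16 had none in the micropillar spots and 13 had none in either. A count of 0 here allows a level of up to 165 CPM in the flat and 76.6 CPM in the micropillar spots.

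Fabp5, a fatty acid binding protein, was the only member with enough counts in both libraries for a fold to be called, meaning 10 UMIs found or expected in the chosen spots of each. It had 31 and 92 UMIs and was higher by 1.85 (1.28 to 2.36) and 2.05 (1.73 to 2.36) against all other spots, past the 2-fold line as were 26.2% of the 381 genes with such counts. Against spots without a neuron UMI its log2 ratio was -0.09 and 0.18. Fabp5 was at least as high in the 75 spots of each library richest in interfollicular epidermis genes, with 2968 and 3607 CPM there against 1706 and 2348 CPM in the Car3- and Fabp4-rich spots. Without Fabp5 the list's log2 ratio in the micropillar spots fell from 0.92 to 0.52.

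**Figure D2:**
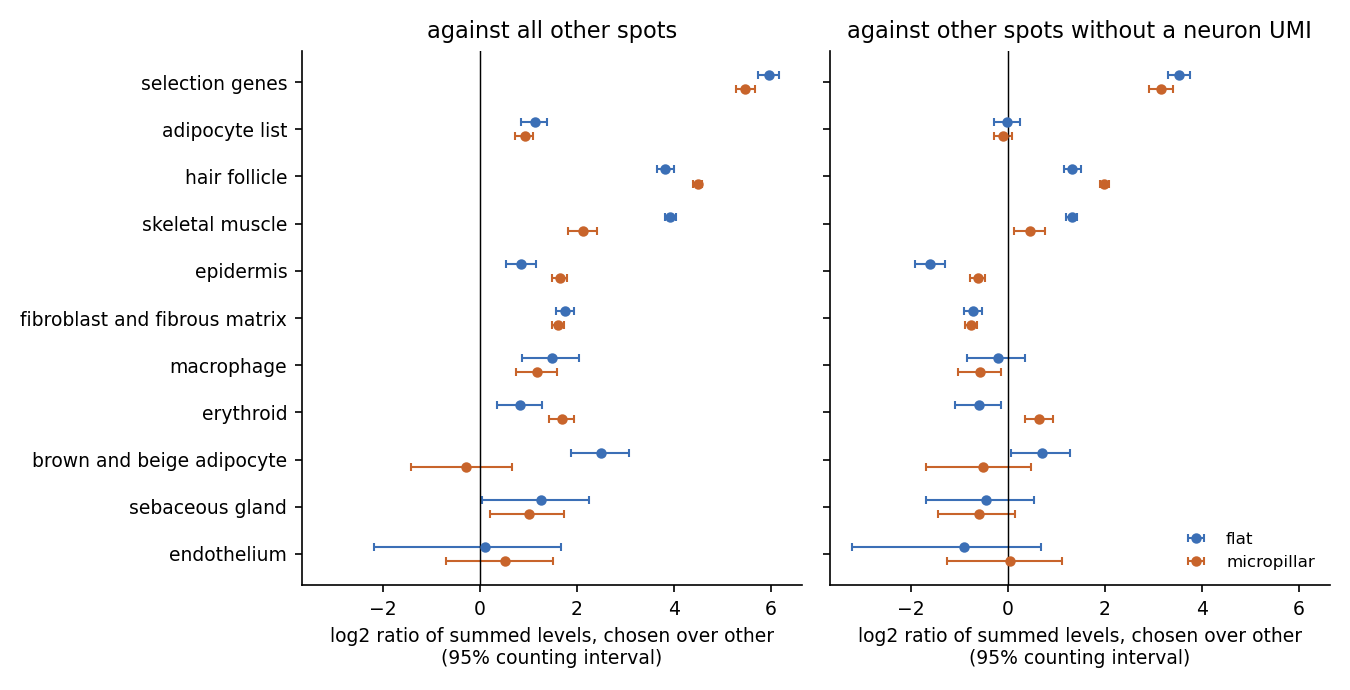
Log2 ratio of summed UMI levels, chosen spots over all other spots (left) and over other spots without a neuron UMI (right), for 11 of the gene lists, with 95% counting intervals. The adipocyte list lies above 0 on the left and at -0.01 and -0.10 on the right, the hair follicle list stays above 0 in both panels, and the skeletal muscle list is at 1.32 and 0.45 on the right, where the micropillar value rests on 1 spot.

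By role, the droplet and lipolysis genes gave 16 and 21 UMIs. Lipe, the hormone-sensitive lipase, had 4 and 8, and on these few UMIs its log2 ratio against spots without a neuron UMI was 1.17 and 1.23. Pnpla2, the lipase that opens triglyceride breakdown, had 8 and 3. Mgll, which cleaves monoglycerides, had 4 and 6. Plin2, Plin4 and Cidea, all droplet coat or fusion proteins, had none. Plin4 had just 2 and 4 UMIs in all spots with at least 100 UMIs, so its absence says little. Among the genes of fatty acid uptake, Lpl, the lipoprotein lipase, had 7 and 16 UMIs. Slc27a1, a fatty acid transporter, had 7 and 18.

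Triglyceride synthesis genes gave 12 and 13 UMIs, and fatty acid synthesis genes 18 and 40, of which the desaturase Scd1 had 8 and 19. Secreted factors gave 7 and 10 UMIs and caveola genes 8 and 9. Of the secreted factors, Retn had 3 and 2 UMIs, of 11 and 15 in all spots with at least 100 UMIs. Its 2 micropillar UMIs lay in 1 spot. The insulin and adrenergic response genes gave 9 and 11. Against spots without a neuron UMI, 7 of the 8 role groups had an interval that included 0 in both libraries.

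The exception was the group of adipogenic transcription factors, with 2 and 13 UMIs. Its log2 ratio against spots without a neuron UMI was -2.65 (-5.70 to -0.78) in the flat and -1.22 (-2.15 to -0.41) in the micropillar spots. Cebpb, an early factor of fat cell differentiation, made up 2 and 8 of the UMIs in the chosen spots. In the spots without a neuron UMI it made up 109 of the group's 212 (flat) and 125 of its 213 UMIs (micropillar). Cebpb itself was at -1.69 (flat) and -1.15 (micropillar), in neither library lower than the group. The low ratio of the group thus did not rest on Cebpb alone. Pparg, the master regulator of adipocytes, had none, and had 4 and 0 UMIs over the whole libraries. The hormone gene Lep had no UMI in any spot with at least 100 UMIs, so its absence says little about these spots.

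Brown and beige adipocyte genes gave 26 and 9 UMIs. Against spots without a neuron UMI their log2 ratio was 0.71 (0.07 to 1.29) in the flat and -0.50 (-1.68 to 0.49) in the micropillar spots, and between libraries it was -2.64 (-3.92 to -1.50), micropillar over flat. Ucp1, the uncoupling protein that defines brown fat, had none in either library. Of the 26 flat UMIs, 17 came from Cox8b and 8 from Cox7a1, subunits of respiratory complex IV that skeletal muscle makes too. Adipose progenitor and stroma genes gave 10 and 15 UMIs, led by Pi16 with 4 and 5, at log2 ratios of 0.06 (-1.02 to 0.98) and -0.30 (-1.18 to 0.48) against spots without a neuron UMI.

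Genes of skeletal muscle were abundant in the flat spots. The 12-gene skeletal muscle list took 776 UMIs in the flat spots, 4.27% of all their UMIs, and 100 UMIs in the micropillar spots, 0.255%. Against all other spots this was higher by 3.93 (3.82 to 4.03) and 2.13 (1.82 to 2.42) on the log2 scale. Against spots without a neuron UMI the log2 ratio was 1.32 (1.21 to 1.43) and 0.45 (0.13 to 0.77). Without the chosen spot with the most muscle UMIs in each library, these values were 1.25 (1.14 to 1.36) and -0.07 (-0.45 to 0.30), so the micropillar excess over spots without a neuron UMI rested on 1 spot. Against all other spots the micropillar list stayed higher without it, at 1.61 (1.24 to 1.95). Acta1 (skeletal actin) had 264 and 35 UMIs and Tnnt3 (fast troponin T) had 97 and 12. Ckm (muscle creatine kinase) had 96 and 14, Myh1 (a fast myosin) 78 and 15, and Mylpf (a fast myosin light chain) 53 and 11. Slow fibre genes had no UMI in the chosen spots. At the level of the other spots just 0.19 and 0.65 UMI would be found there, so this says little.

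The muscle UMIs lay in some spots and not in others. In the flat library the share per spot ran from 0 to 26.7% with a median of 0.885%. It was 5% or more in 33 spots, and 29 spots had no muscle UMI. In the micropillar library it ran from 0 to 8.83% with a median of 0, and 1 spot reached 5%. That spot held 31 of the library's 100 muscle UMIs in chosen spots.

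Hair follicle genes showed the opposite balance between the libraries. The 7 measured genes of the list took 305 UMIs in the flat spots, 1.68% of the total, and 1353 in the micropillar spots, 3.45%. Against all other spots the log2 ratio was 3.82 (3.65 to 3.99) and 4.49 (4.40 to 4.58). Against spots without a neuron UMI it was 1.33 (1.15 to 1.51) and 1.99 (1.89 to 2.09). Tchh encodes trichohyalin, which hardens the inner root sheath, and had 202 and 829 UMIs. Of the keratins of that sheath, Krt27 had 30 and 125 UMIs, Krt71 25 and 195, and Krt25 26 and 127. Krt34, a keratin of the hair cortex, had 10 and 36.

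Per spot, the hair follicle share ran from 0 to 7.14% in flat spots with a median of 0, and from 0 to 8.97% in micropillar spots with a median of 2.37%. It reached 5% in 5 flat and 16 micropillar spots. No spot of either library had 5% or more of both muscle and hair follicle genes. In 37 flat and 58 micropillar spots neither list reached 5%. With every spot thinned to 100 UMIs, a hair follicle UMI was found in 32.0% of the chosen flat spots and 72.0% of the micropillar ones, against 7.2% and 9.3% of other spots (37.3% and 88% against 13.6% and 28.1% before thinning). In the 75 spots of each library richest in neuron genes the thinned shares were 0 and 1.3%. The median depths of those neuron spots were 2000 and 1001 UMIs.

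**Figure D3:**
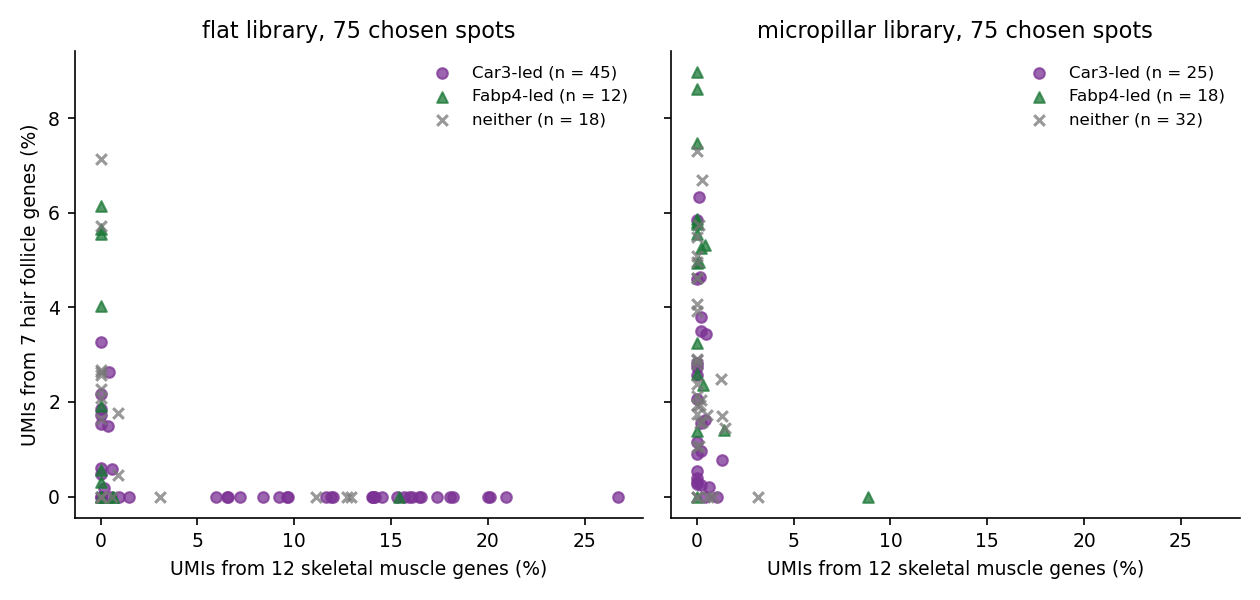
Share of each chosen spot's UMIs from 12 skeletal muscle genes (horizontal, %) and from 7 hair follicle genes (vertical, %), 1 point per spot, by whether Car3 or Fabp4 outweighed the other selection genes. Flat spots at 5% muscle or more, 33 in number, have no hair follicle UMIs, and the micropillar spots spread along the hair follicle axis except for 1 spot at 8.83% muscle.

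Which selection gene led a spot went with these lists, differently in each library. In the 45 Car3-led flat spots, muscle genes took 7.63% of UMIs (7.07 to 8.23) and hair follicle genes 0.579% (0.431 to 0.761). In the 12 Fabp4-led flat spots, muscle genes took 0.562% (0.36 to 0.836) and hair follicle genes 3.07% (2.56 to 3.64). Of the 131 hair follicle UMIs in those 12 spots, 122 lay in 4 spots, and the median spot had a share of 0.436%. In the micropillar library the 25 Car3-led spots had little muscle signal, 0.181% (0.114 to 0.275), and hair follicle genes took 2.32% (2.05 to 2.60). In the 18 Fabp4-led micropillar spots hair follicle genes took 5.03% (4.63 to 5.46). The Car3-led spots were shallower, with median depths of 166 and 481 UMIs against 326 and 629.5. The part of depth in these shares was not tested.

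Spots with a UMI of Adipoq, Plin1 or Cidec also carried hair follicle genes. In these 6 flat and 9 micropillar spots, hair follicle genes took 2.31% (1.74 to 3.02) and 4.04% (3.55 to 4.58) of UMIs, and muscle genes 0.171% and 0.165%. The chosen spots without such a UMI had hair follicle shares of 1.59% (1.40 to 1.79) and 3.35% (3.15 to 3.55). Per spot, the median hair follicle share of the 6 flat spots was 1.04%. The spots with such a UMI were deeper, with medians of 420.5 against 175 UMIs (flat) and 623 against 487 (micropillar), and the part of depth in these shares was not tested. The 59 other adipocyte genes took 0.685% (0.391 to 1.11) of UMIs in those flat spots and 0.669% (0.548 to 0.810) in the other 69. In the micropillar library these shares were 0.693% (0.5 to 0.937) and 0.628% (0.546 to 0.719).

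The muscle signal depended on the choice of genes. In flat spots chosen without Car3, the log2 ratio of the muscle list against all other spots was -0.17, from 3.93. With at least 4 selection UMIs required it was 0.58 (flat) and 0.37 (micropillar).

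Over all genes, 100 of the 381 with enough counts (26.2%) were 2-fold or more higher than in all other spots in both libraries and 149 (39.1%) were 2-fold or more lower. The median gene had a log2 ratio of -0.59 (flat) and -0.45 (micropillar). The highest outside the selection genes included the hair follicle keratins Krt34, Krt26, Krt75, Krt27 and Krt28, with Tchh, Prr9 and Padi3, an enzyme that modifies trichohyalin. Padi3 had 13 and 63 UMIs and log2 ratios of 4.46 (3.48 to 5.32) and 5.34 (4.88 to 5.79). Hp, which encodes the haemoglobin scavenger haptoglobin and is expressed in fat as well as liver, had 12 and 21 UMIs at 4.38 (3.37 to 5.28) and 4.21 (3.45 to 4.90). Lrrc15, a membrane protein of some fibroblasts, had 10 and 16 UMIs. Col15a1, a collagen of basement membrane zones, had 13 and 27. Hspb1, a small heat shock protein, had 12 and 26. The lowest were Avp, Chn1, Nap1l5, Ctxn1, Nfasc, Eno2, Camk2n1 and Hpcal4, all known from neurons. Camk2n1, an inhibitor of the synaptic kinase CaMKII, had 4 and 2 UMIs in the chosen spots and 7204 and 6897 in the others.

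Against other spots without a neuron UMI, 15 of 261 genes (5.75%) were 2-fold or more higher in both libraries and 16 (6.13%) were lower. Those higher were Krt26, Krt27, Krt28, Krt34, Krt75, Tchh, Padi3, Prr9, Hp, Lrrc15, Col15a1, Hspb1, Iffo2, Thbs1 and Mylpf. Hp was at 1.97 and 1.85. Those lower included the terminal epidermal genes Flg, Lor, Krt1, Krt10 and Krtdap. They also included the matrix genes Col1a2 and Fn1. Lor, which encodes the cornified envelope protein loricrin, had 4 and 2 UMIs in the chosen spots, at -3.40 and -5.10. Krt14, the keratin of basal epidermis and the outer root sheath, had 58 and 279 UMIs, at -0.31 and 0.49.

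The fibroblast and fibrous matrix list gave 249 and 545 UMIs and stood at 1.75 and 1.61 against all other spots, but at -0.72 and -0.76 against those without a neuron UMI. The epidermis list (92 and 372 UMIs) went from 0.85 and 1.65 to -1.60 and -0.62. The macrophage list (26 and 48 UMIs) went from 1.49 and 1.18 to -0.21 and -0.57. Endothelial genes, relevant because Fabp4 is made by capillaries, gave 3 and 8 UMIs, at -0.90 (-3.21 to 0.69) and 0.04 (-1.24 to 1.12) against spots without a neuron UMI. Of the 10 endothelial genes, 7 were at 0 in the flat and 2 in the micropillar spots, again without the share over all genes for comparison. Sebaceous gland genes gave 8 and 16 UMIs, at -0.46 (-1.69 to 0.55) and -0.59 (-1.43 to 0.15) on that scale.

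Erythroid genes gave 40 and 128 UMIs. In the flat spots they were at 0.83 against all other spots and -0.59 against spots without a neuron UMI. In the micropillar spots they were higher against both, by 1.68 (1.41 to 1.94) and 0.65 (0.37 to 0.93). Osteoclast genes gave 9 and 6 UMIs, smooth muscle and pericyte genes 15 and 10, peripheral nerve genes 6 and 7, and mast cell genes 0 and 3. Neutrophil and marrow genes gave 3 and 5, astrocyte and oligodendrocyte genes 4 and 19, and oxidative phosphorylation genes 14 and 17. Neuron genes gave 16 and 28 UMIs, lower by log2 ratios of -3.14 (-3.94 to -2.44) and -3.21 (-3.80 to -2.68) than in all other spots.

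Sets of 75 spots chosen in the same way by other tissue genes showed where the selection genes lay outside the chosen spots. Hair follicle spots shared 7 flat and 25 micropillar spots with the Car3- and Fabp4-rich ones, skeletal muscle spots shared 12 and 8, and epidermis and neuron spots shared none. Fabp4 reached 2141 and 2560 CPM in hair follicle spots, and 1635 and 1567 CPM in those that were not shared. In skeletal muscle spots it was at 402 and 699 CPM, and in epidermis spots at 33.3 and 68.4 CPM. Car3 reached 3776 and 1223 CPM in skeletal muscle spots (1619 and 795 in those not shared). In hair follicle spots it reached 1472 and 1458 CPM (1269 and 1069 in those not shared). In neuron spots Car3 and Fabp4 had 0 UMIs in the flat library and 1 each in the micropillar library.

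The summed level of the 59 other adipocyte genes overlapped that of hair follicle spots. They stood at 6715 CPM (5576 to 8017) and 6380 CPM (5614 to 7222) in the Car3- and Fabp4-rich spots. In hair follicle spots they stood at 6155 CPM (5450 to 6925) and 6188 CPM (5569 to 6857). Epidermis spots had 6702 CPM (5807 to 7695) in the flat library and were higher than the chosen spots in the micropillar library, at 8086 CPM (7373 to 8848). Fabp5 alone gave 89 of the 201 and 211 of the 473 UMIs of the list there. Skeletal muscle spots had 4981 CPM (3819 to 6386) and 5379 CPM (4563 to 6299), fibrous matrix spots had 4023 and 3725 CPM, and neuron spots 1813 and 2103 CPM. Adipoq, Plin1 and Cidec together had 3 and 2 UMIs in the hair follicle spots outside those chosen by Fabp4, Cfd and Car3. This is 73.2 (15.1 to 214) and 46.1 (5.58 to 166) CPM. In the spots chosen by Fabp4, Cfd and Car3 their level was 272 (88.2 to 634) and 130 (42.2 to 303) CPM. Adipoq, Plin1 and Cidec had 0 and 1 UMI in such muscle spots, and none in epidermis, fibrous matrix or neuron spots.

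**Figure D4:**
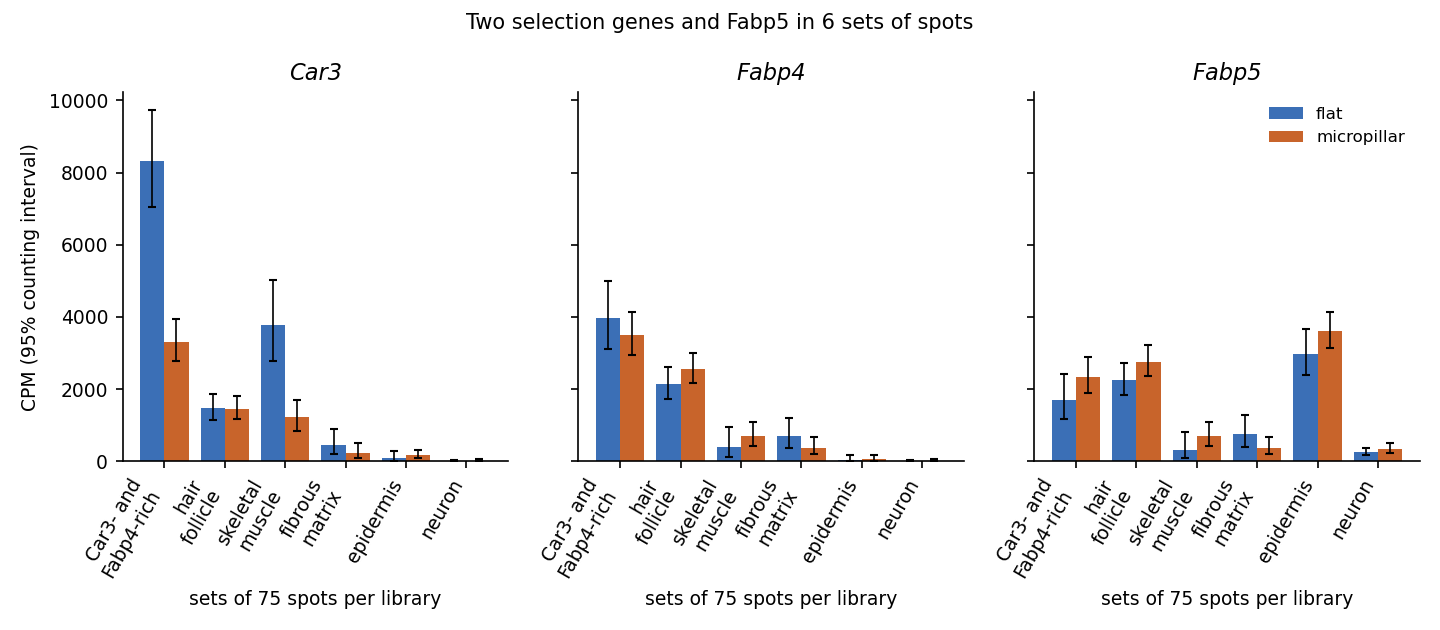
Levels of Car3, Fabp4 and Fabp5 in CPM in 6 sets of 75 spots per library, each set chosen by its own marker genes, with 95% counting intervals. Car3 is next highest in flat skeletal muscle spots (3776 CPM), Fabp4 in hair follicle spots (2141 and 2560 CPM), and Fabp5 is highest in epidermis spots.

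Between the implants, within the Car3- and Fabp4-rich spots, the 59 other adipocyte genes differed by a log2 ratio of -0.07 (-0.39 to 0.25), micropillar over flat. In the other spots of the 2 libraries it was 0.13. Of 827 genes with at least 10 UMIs in 1 library, 196 (23.7%) were 2-fold or more higher in the micropillar library and 64 (7.74%) were 2-fold or more lower, and the median gene was at 0.35. None of the 4 adipocyte genes with such counts was 2-fold apart. Fabp5 was at 0.46 (-0.14 to 1.10), Lpl at 0.08 (-1.28 to 1.61), Scd1 at 0.14 (-1.12 to 1.54) and Slc27a1 at 0.25 (-1.07 to 1.76). These intervals do not exclude a 2-fold difference for any of the 4.

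Muscle genes were lower in the micropillar spots. The list went from 776 to 100 UMIs, a log2 ratio of -4.06 (-4.38 to -3.76). In the other spots of the libraries the ratio was -2.27. Acta1 went from 264 to 35 UMIs at -4.02 (-4.58 to -3.51), and Tnni2, fast troponin I, from 55 to 2 at -5.89 (-8.97 to -3.97). Myl1, a fast myosin light chain, went from 32 to 0. The 8 lowest genes between the libraries also included Tnnt3, Tcap (a protein of the Z disc) with 42 and 5 UMIs, Mb (myoglobin) with 29 and 3, Myoz1 (another Z disc protein) with 27 and 2, and Cox6a2 (a muscle subunit of complex IV) with 20 and 2. In spots chosen without Car3 the Acta1 ratio was 0.041, while the whole muscle list was still lower, at -0.88. The list was at -1.26 with at least 250 UMIs per spot and at -2.57 with at least 4 selection UMIs per spot. The muscle content of the 2 sections and the implant cannot be told apart, since each implant had 1 section.

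Hair follicle genes were higher in the micropillar spots by 1.04 (0.86 to 1.22), against 0.37 in the other spots. Krt71 went from 25 to 195 UMIs, at 1.85 (1.25 to 2.52), and Krt25 from 26 to 127, at 1.18 (0.56 to 1.85). The size and direction of this difference depended on the choice of spots: the list's ratio was 0.17 with spots chosen without Car3, 0.31 with at least 250 UMIs per spot, 0.53 with up to 150 spots and -0.37 with at least 4 selection UMIs per spot. The epidermis list was at 0.91 (0.57 to 1.25), and at -0.016 with up to 150 spots per library.

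The genes highest in the micropillar spots were led by skin gland secretions. Mucl2 had 0 and 67 UMIs, at least 10.4-fold higher when 0 is read as 3 UMIs, and Scgb1b2 had 0 and 35. In the whole flat library Mucl2 had 1 UMI, against 1513 in the micropillar library, so this difference was not one of the chosen spots alone. Cpm, which encodes carboxypeptidase M, had 4 and 57 UMIs, at 2.72 (1.29 to 4.65). Dsp, which encodes the desmosome protein desmoplakin, had 2 and 25. Bglap, the osteoblast hormone osteocalcin, had 0 and 33 UMIs, of which 22 lay in 1 spot. Eef1b2, Rnf149 and Ly6g6g completed the 8 highest.

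**Figure D5:**
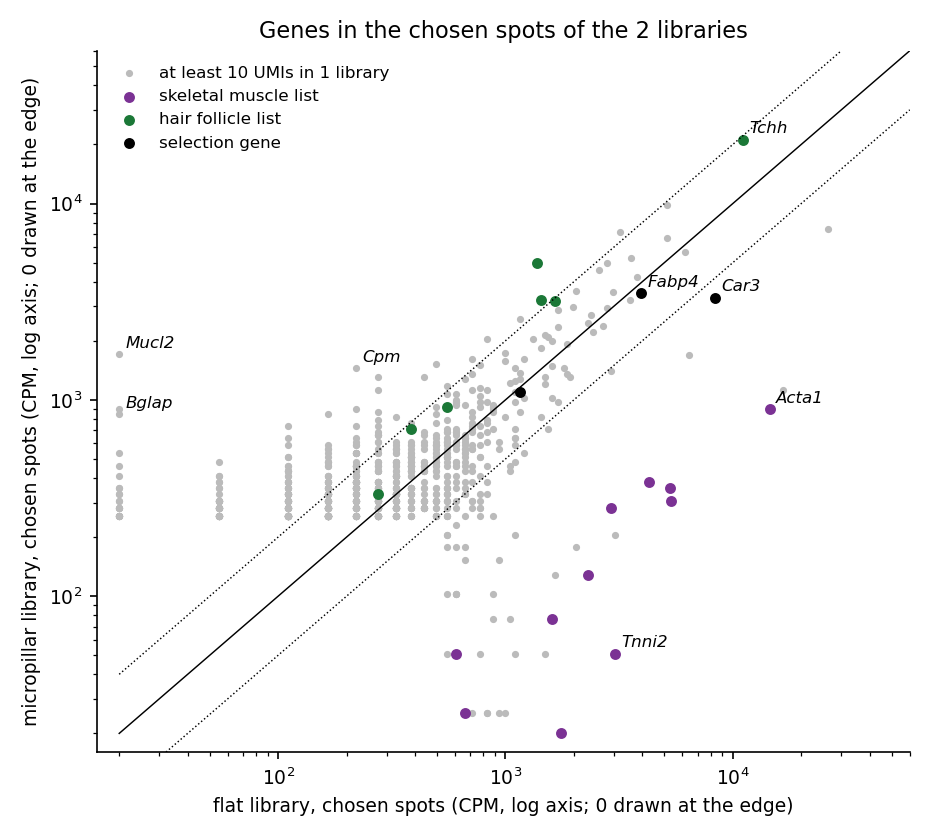
Level of each gene with at least 10 UMIs in the chosen spots of 1 library, flat (horizontal) against micropillar (vertical), in CPM on log axes. The solid line marks equal levels and the dotted lines a 2-fold difference. Skeletal muscle genes such as Acta1 (264 and 35 UMIs) lie far below the line, Tchh (202 and 829 UMIs) lies above it, and Fabp4 lies near it.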

How the data were processed

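The authors deposited raw UMI counts per gene and spot, not normalised, for 2 libraries. Space Ranger 2.0.1 wrote the matrices, per the file headers. Cell Ranger 7.2.0 and mm10 appear in the submitters' processing notes, and a directional mRNA kit in the labels' protocol, so the sources differ. No probe set or aligner setting is stated in them. Spot positions were not used, no doublet caller was run, and no cell-type makeup was estimated.

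Each library lists 19465 genes. Of the 11 symbols on 2 rows, the row with the larger sum was kept. GENCODE M21 on mm10 held 19451 of the identifiers. Spots with at least 100 UMIs were kept, 2681 of 3161 in the flat and 3064 of 3303 in the micropillar library. Counts were summed over spots, divided by total UMIs to give CPM, and compared as log2 ratios without a pseudocount, with 0 read as 3 UMIs. Intervals for levels, and for shares of UMIs in subsets of the chosen spots, are exact Poisson. Those for ratios and for other shares are exact Clopper-Pearson, and all cover counting error only. Median ratios over genes use the same floor.

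The members, the 30 gene lists (232 entries, 9 of them not analysed here) and the comparisons were chosen with earlier results of these data known. Hair follicle and neuron spots were added as comparison sets after the counts were seen. Named genes were the selection genes, the adipocyte genes with 10 UMIs over both libraries and each other list's most abundant, highest and lowest member. They also include the 12 highest and 8 lowest genes against other spots, and the 8 highest and 8 lowest between libraries with at least 20 UMIs in 1. Some of these are given only through their list. Ckm, Myh1, Cox7a1, Lep, Retn, Ucp1, Krt25, Krt71, Pparg, Plin2, Plin4, Cidea and the genes called against spots without a neuron UMI were named after their values were seen. One gene is not reported here.

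Scripts ran in Python 3.11.15 with numpy 2.4.6, scipy 1.17.1 and pandas 2.3.3, and in R 4.3.3. TMM factors (edgeR 4.0.16) and size factors (DESeq2 1.42.0) served as alternative scalings only. The ratio procedure was tested on simulated data with known folds.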

Additional observations from a re-analysis of the deposited data

Results flagged for a closer look

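The spots left out for having fewer than 100 UMIs also held selection genes. In the 480 such flat spots the 6 genes took 0.244% of 22950 UMIs (0.184 to 0.317), on 56 UMIs, above the 0.0131% that a count of 0 allows and against 0.0332% in the kept flat spots. In the 239 such micropillar spots they took 0.0587% of 15345 UMIs (0.0268 to 0.111), on 9 UMIs, against a limit of 0.0196% and 0.0281% in the kept spots. Adipoq, Plin1 and Cidec had no UMI there in either library. Skeletal muscle genes took 3.88% (3.64 to 4.14) of the UMIs in those flat spots and 0.313% (0.231 to 0.415) in those micropillar spots. The kept spots are mostly spots with neuron UMIs, which lowers their selection share. Kept spots without a neuron UMI, the chosen spots left out, had 367 selection UMIs of 307520 (1193 CPM, flat). In the micropillar library they had 252 of 276432 (912 CPM). The flat spots under 100 UMIs were above that level, and the micropillar ones were not.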

How the results depend on the processing

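Each comparison was recomputed under alternatives, changing 1 choice at a time. Of 119 recomputed values for the main results, 55 moved little, 61 moved further and 3 changed sign. Of 1015 recomputed values for single genes and lists, 328 moved further and 27 changed sign. The cause was not tested unless the alternative's construction shows it. No paired analysis was possible because each implant had 1 library. Alternatives without muscle-rich or hair-rich spots, without Adipoq, Plin1 and Cidec, without Fabp5, and without the spot with most muscle UMIs were chosen after seeing the data.

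The adipocyte list against all other spots (1.12 flat, 0.92 micropillar) was at 0.14 and 0.32 with edgeR TMM factors, 0.20 and 0.36 with DESeq2 size factors, 0.72 and 0.72 with per-spot means of CPM, 0.25 and 0.62 against other spots in the same UMI range, and -0.013 and -0.095 against spots without a neuron UMI. In the micropillar library it was 1.22 with spots chosen without Fabp4, 1.12 with up to 150 spots and 0.52 without Fabp5. Between libraries (-0.07) it was 0.37 with spots chosen without Fabp4 and 0.25 with TMM factors. Such changes of sign are not among the 3 counted above, since the interval of the main value included 0. TMM factors shifted all log2 ratios against other spots by -0.98 (flat) and -0.60 (micropillar), and those between libraries by 0.32, and DESeq2 size factors by -0.93, -0.56 and 0.11.

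The skeletal muscle list (3.93 flat, 2.13 micropillar) was at -0.17 and 1.35 with spots chosen without Car3, 0.58 and 0.37 with at least 4 selection UMIs, 4.17 and 2.48 with up to 40 spots, 2.90 and 1.32 with up to 150 spots, 2.94 and 1.53 with TMM factors, 3.0 and 1.57 with size factors, 2.42 and 1.70 with per-spot means, 1.66 and 1.15 in the same UMI range, and 1.32 and 0.45 without neuron UMIs. It was 1.43 in the micropillar library without Fabp4, 1.61 there without the spot with most muscle UMIs, and 2.53 in the flat library with at least 250 UMIs per spot.

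Counts of genes 2-fold higher and lower than other spots (100 and 149) were 267 and 344 without Car3, 24 and 41 with up to 40 spots, 434 and 537 with up to 150 spots, 266 and 353 with 250 UMIs per spot, 35 and 44 at 20 UMIs per gene, 1277 and 458 at 1 UMI per gene, 43 and 42 in the same UMI range, and 15 and 16 without neuron UMIs. With per-spot means 57 were higher. Counts between libraries (196 higher and 64 lower in micropillar) were 336 and 116 with at least 4 selection UMIs, 103 and 32 with up to 40 spots, 402 and 151 with up to 150 spots, 128 and 106 with 250 UMIs per spot, 49 and 22 at 20 UMIs per gene, and 544 and 1715 at 1 UMI per gene. Fewer or shallower spots leave fewer genes with enough UMIs.

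Among single results against other spots, the flat epidermis list was at -0.14 with TMM factors, -0.079 with size factors, -0.48 with per-spot means, -0.95 in the same UMI range and -1.60 without neuron UMIs, and the micropillar one at -0.62 without neuron UMIs. The flat erythroid list was at -0.0074 with at least 4 selection UMIs, -0.15 with TMM factors, -0.10 with size factors, -0.86 in the same UMI range and -0.59 without neuron UMIs. The flat fibrous matrix and macrophage lists were at -0.49 and -0.23 in the same UMI range. Without neuron UMIs the fibrous matrix list was at -0.72 and -0.76 and the macrophage list at -0.21 and -0.57. The flat fatty acid uptake list was at -0.040 there and the micropillar lipolysis list at -0.065. Between libraries, spots chosen without Car3 gave Acta1 0.041, Cox6a2 0.19 and Bglap -1.39. At least 4 selection UMIs gave the hair follicle list -0.37, Bglap -0.25 and Ly6g6g -0.14. The epidermis list was at -0.016 with up to 150 spots and -0.13 with 250 UMIs per spot. Depth limits single genes most, since a gene at 0 may still reach 165 CPM in the flat and 76.6 CPM in the micropillar spots.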

Other observations

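Some genes were abundant in the chosen spots without belonging to a list, and they are named here because of their counts. Aldoa, the glycolytic aldolase that is high in fast muscle, was the most abundant gene of the flat spots, with 478 UMIs against 292 in the deeper micropillar spots. Tnnc2, fast troponin C, had 301 and 44 UMIs. In the micropillar spots Prr9, Ctsl, which encodes the lysosomal protease cathepsin L, and Sprr1a, which encodes an envelope protein of stratified epithelia, were among the most abundant after Tchh.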
